A study of Saccharomyces cerevisiae with 26 samples.

Results

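The transcriptome of *S. cerevisiae* at low pH under ambient CO2 was described from 6 of the 26 libraries of the series: 3 from chemostats at pH 3 and 3 from chemostats at pH 5, all labelled 0.04% CO2. Genes entered when their mean FPKM (reads scaled by gene length and by the reads counted in the library) over these 6 libraries was at least 10, which 4975 of 6600 genes did and 1625 did not. All cultures were of CEN.PK113-7D, a prototrophic haploid laboratory strain of mating type a, and were limited by glucose, the sole carbon source, at a dilution rate of 0.025 per hour in synthetic medium with ammonium as nitrogen source and with added iron sulfate, EDTA and biotin, so that the groups differ by their labels in pH only. By the study's methods, pH was held by adding an ammonia solution, and the pH 3 medium was acidified with sulfuric acid. Supply of sulfate, and possibly of ammonium, thus changed along with pH. The study asked how low pH by itself, without high CO2, changes very slowly growing cells. The growth text attached to both groups speaks of 50% CO2 in the inlet gas, whereas titles and condition labels give 0.04%, and the labels were followed. By the study's account, the pH 3 cultures oscillated in off-gas composition, were sampled without regard to the phase and held fewer viable cells than the pH 5 cultures. In such bulk samples, fewer cells of a kind and less RNA per cell cannot be told apart.

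Levels below are FPKM scaled so that the 6 libraries share the same median over the genes tested. The 6 libraries held between 12666218 and 14553146 reads on genes. At pH 3, the 10 genes with most reads took 12.1%, 16.8% and 17.0% of the reads, against 9.94%, 9.83% and 8.19% at pH 5. Libraries 2 and 3 at pH 3 were much alike: their read counts differed by 2.46 times sampling noise (chi-square per degree of freedom), whereas the other 5 pairs within the 2 groups differed by between 32.7 and 156 times. The source label of all 3 pH 3 libraries ends in the same number, although the titles number them 1 to 3 and the study describes 3 biological replicates. Whether libraries 2 and 3 came from separate cultures could not be settled, so the counts of the main comparison and of the gene lists are also given with them averaged and counted as 1 sample. The comparison with 50% CO2 was not refitted in that way. Library 1 at pH 3 and library 3 at pH 5 stood farthest from their own groups. The change of a gene rose with the GC content of its sequence (Spearman's rho 0.337 across 4893 genes, which share the same 6 libraries), with a median log2 change of −0.18 in the quintile of lowest GC content and 0.29 in the highest, and counts with GC content adjusted for are given beside the first result.

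Of the 4975 genes tested, 114 (2.29%) were differentially expressed (DE) at pH 3, by more than 2-fold at an adjusted p under 0.005 in limma (Benjamini-Hochberg). Of these, 85 (1.71% of the genes tested) were higher and 29 (0.583%) were lower at pH 3, and the 3 libraries of each group did not overlap for any of them. At an adjusted p under 0.05 without a fold limit, 586 genes (11.8%) were higher and 338 (6.79%) were lower, and this is the limit at which gene lists are counted below. The median log2 change over all genes was −0.02 after scaling and −0.42 for the FPKM as deposited, for which 46 genes were DE upward and 59 downward. With GC content adjusted for, 49 were higher and 28 lower. With pH 3 libraries 2 and 3 averaged, 14 genes were DE, 7 in each direction, and 182 of 5006 genes were higher and 60 lower at an adjusted p under 0.05. Although the limit was then seldom passed, 112 of the 114 DE genes kept their direction at an adjusted p under 0.05 in that fit and the other 2 no longer reached the FPKM minimum. At an adjusted p under 0.05, 192 genes were higher and 63 lower without pH 3 library 2, and 178 and 61 without pH 3 library 3. Without pH 5 library 2, the numbers were 366 and 129. Fewer genes of any kind thus passed in these fits, and the list counts from them are to be read beside these totals.

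**Figure D1:**
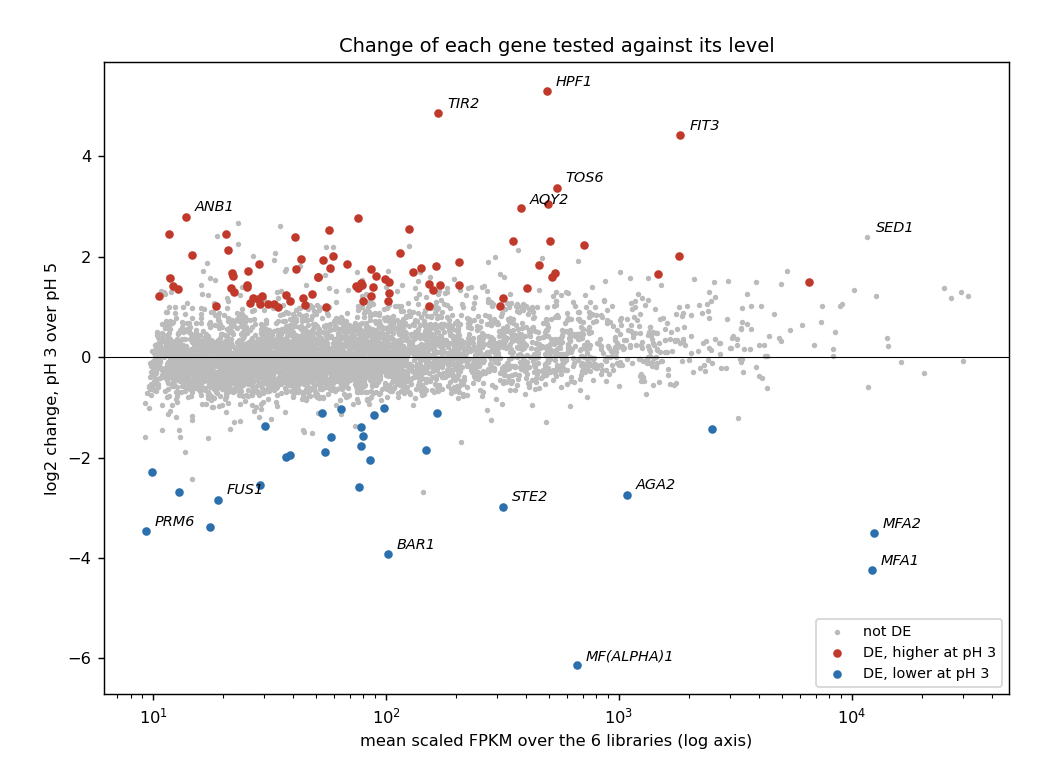
Fitted log2 change (pH 3 over pH 5, vertical axis) of each of the 4975 genes tested against its mean scaled FPKM over the 6 libraries (logarithmic horizontal axis), with DE genes coloured by direction. Most genes lie near 0, mating genes such as *MFA1* and *MF(ALPHA)1* reach −4.24 and −6.14, and *HPF1* reaches 5.30.

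The largest falls were those of mating genes. Haploid yeast cells of type a secrete a-factor pheromone and carry a receptor for the alpha-factor of the opposite type. Binding of pheromone starts a kinase cascade that ends at the transcription factor Ste12, which activates genes for agglutination, polarized growth and cell fusion. Ste12 also sets the basal level of many of these genes in cells that have met no partner. Of the 12 genes with the largest falls, 5 were on the list of 7 a-specific genes, 5 were on the list of pheromone response genes, and the other 2 were *MF(ALPHA)1* and *NFG1*, a negative regulator of filamentous growth.

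*MFA1*, which encodes a-factor, had 1327, 1221 and 1109.5 FPKM in the pH 3 libraries, against 24001, 19598 and 26065 FPKM in the pH 5 libraries. Every pH 5 library was far above every pH 3 library, and within each group the values were close. The mean was 1219 ± 109 FPKM at pH 3 and 23221 ± 3304 FPKM at pH 5 (SD, n = 3 each), 19.0-fold lower at pH 3, with a log2 change of −4.24 (SE 0.19, adjusted p = 5.9e-05). *MFA2*, the second a-factor gene, had 2618, 1758 and 1722 FPKM at pH 3 and 22692, 19882 and 25822 FPKM at pH 5 (log2 change −3.51, adjusted p = 0.00037). In both a-factor genes, library 1 was the highest of the pH 3 libraries but stayed well below the pH 5 libraries.

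The genes that act on the partner's signal fell as well. *STE2*, the alpha-factor receptor, had 111, 54.4 and 55.8 FPKM at pH 3 and 505, 501 and 672 FPKM at pH 5 (log2 change −2.98, adjusted p = 0.0011). *BAR1*, the secreted protease that degrades alpha-factor, had 14.6, 9.79 and 10.7 FPKM at pH 3 and 164, 179.6 and 233 FPKM at pH 5 (log2 change −3.93, adjusted p = 7.1e-05). Neither gene overlapped between the groups, and pH 5 library 3 was the highest for both. *AGA2*, the binding subunit of the a-agglutinin, averaged 283 ± 62.2 FPKM at pH 3 and 1888 ± 324 FPKM at pH 5, and *STE6*, the a-factor exporter, averaged 14.2 ± 2.28 and 60.4 ± 17.3 FPKM (SD, n = 3 each). With *ASG7*, named to complete the list and 3.77-fold lower at pH 3, all 7 a-specific genes were DE downward, with a median log2 change of −2.98 beside −0.02 for all genes tested. All 7 also passed an adjusted p of 0.05 with pH 3 libraries 2 and 3 averaged and with each library left out in turn.

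Targets of the pheromone cascade showed the same direction at much lower levels. *FUS1*, needed for cell fusion, had 3.80, 4.16 and 3.38 FPKM at pH 3 against 27.5, 28.3 and 46.5 FPKM at pH 5 (log2 change −2.84, adjusted p = 0.00063). *PRM1*, a membrane fusion protein, had 3.24, 2.30 and 2.43 FPKM at pH 3 and 19.9, 18.1 and 31.7 FPKM at pH 5 (log2 change −2.70, adjusted p = 0.00092). *FIG1*, a mating-induced membrane protein of the calcium uptake system, had 1.93, 2.16 and 1.68 FPKM at pH 3 and 21.4, 20.0 and 58.5 FPKM at pH 5 (log2 change −3.38, adjusted p = 0.0023). For all 3 genes the pH 3 libraries were uniformly low, the groups did not overlap, and pH 5 library 3 stood above the other pH 5 libraries. *PRM6* rested on 7, 4 and 7 reads at pH 3 and on 183, 157 and 622 reads at pH 5, and *AGA1*, the anchor subunit of the a-agglutinin, averaged 20.8 ± 2.72 FPKM at pH 3 and 132 ± 34.3 FPKM at pH 5. *KAR4*, a transcription factor for nuclear fusion genes, averaged 23.7 ± 2.10 FPKM at pH 3 and 72.7 ± 29.9 FPKM at pH 5 (SD, n = 3 each).

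Of 25 tested members of the pheromone response list, 14 fell, 10 did not pass the test and 1, *DIG1*, an inhibitor of Ste12 that is named after its values were seen, rose by a log2 change of 0.52 (adjusted p = 0.034) but did not pass with pH 3 libraries 2 and 3 averaged. The median log2 change of the list was −0.96. With pH 3 libraries 2 and 3 averaged, 10 of the 25 fell, beside 60 of all 5006 genes in that fit. Among 9 tested haploid-specific genes, which include the shared signalling components, 5 fell, among them the kinase *FUS3* (−1.77), the G protein subunits *GPA1* (−0.98), *STE18* (−0.76) and *STE4* (−0.62), and the protease *AXL1* (−0.51), all as log2 changes. Of these 5, 2 passed with libraries 2 and 3 averaged, without pH 3 library 2 and without pH 3 library 3, and 3 passed without pH 5 library 2. The kinase genes *STE11* and *STE7*, named after their values were seen, had log2 changes of −0.29 and 0.00 and did not pass.

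*MF(ALPHA)1*, which encodes alpha-factor and is transcribed mainly in cells of the opposite mating type, had the largest fall of all genes tested. It had 49.5, 8.19 and 9.29 FPKM at pH 3 and 1064, 758 and 2079.8 FPKM at pH 5 (log2 change −6.14, SE 0.66, adjusted p = 0.002). The groups were far apart, yet the libraries within each varied more than for any a-specific gene. The other alpha-specific genes did not share its size: *STE3*, the a-factor receptor, averaged 19.9 ± 7.18 FPKM at pH 3 and 37.9 ± 6.32 FPKM at pH 5 (log2 change −0.94, adjusted p = 0.034, or 0.12 with libraries 2 and 3 averaged), and *MF(ALPHA)2* and *SAG1* did not pass. All 7 a-specific genes, which mark the mating type of the strain, were expressed in all 6 libraries. Of the genes of meiosis and sporulation, 3 of 18 reached the FPKM minimum, of which *IME1*, the inducer of meiosis, had a log2 change of 0.42 (adjusted p = 0.045), a call that was lost with libraries 2 and 3 averaged (adjusted p = 0.15), with FPKM as deposited (log2 change 0.02) and without any single library except pH 5 library 3.

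The pheromone response element bound by Ste12, TGAAACA, was searched on both strands (TGTTTCA) in the 300 bases that lie 400 to 101 bases before each start codon. It was present in 428 of 5897 such windows (7.26%), in 6 of the 7 a-specific genes, in 16 of the 25 tested pheromone response genes and in 9 of the 12 genes with the largest falls. Of the 354 tested genes with a match, 51 (14.4%) fell and 43 (12.1%) rose, beside 284 (6.26%) and 534 (11.8%) of the 4539 without a match. With pH 3 libraries 2 and 3 averaged, 17 of the genes with a match fell and 16 rose, beside 41 and 165 without. The windows of *FUS1* (chrIII:71403-71702, plus strand), *PRM1* (chrXIV:110517-110816, plus strand) and *STE2* (chrVI:82180-82479, plus strand) are shown because they carry 2, 3 and 2 copies. They are from release R64 of the reference genome (RefSeq), not from this strain, are written 5′ to 3′, and have the element in capitals. 
FUS1: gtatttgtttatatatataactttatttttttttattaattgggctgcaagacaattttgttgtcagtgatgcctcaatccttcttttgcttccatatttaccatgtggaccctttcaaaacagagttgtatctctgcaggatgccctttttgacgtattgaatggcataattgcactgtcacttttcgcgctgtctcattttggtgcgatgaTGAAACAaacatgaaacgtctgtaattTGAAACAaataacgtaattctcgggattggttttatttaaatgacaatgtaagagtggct
PRM1: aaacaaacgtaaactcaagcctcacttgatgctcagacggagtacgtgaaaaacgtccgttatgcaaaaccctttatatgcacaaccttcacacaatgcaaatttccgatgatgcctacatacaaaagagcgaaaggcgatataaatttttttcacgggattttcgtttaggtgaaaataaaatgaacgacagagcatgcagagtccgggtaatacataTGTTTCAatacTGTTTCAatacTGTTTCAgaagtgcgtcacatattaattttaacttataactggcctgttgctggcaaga
STE2: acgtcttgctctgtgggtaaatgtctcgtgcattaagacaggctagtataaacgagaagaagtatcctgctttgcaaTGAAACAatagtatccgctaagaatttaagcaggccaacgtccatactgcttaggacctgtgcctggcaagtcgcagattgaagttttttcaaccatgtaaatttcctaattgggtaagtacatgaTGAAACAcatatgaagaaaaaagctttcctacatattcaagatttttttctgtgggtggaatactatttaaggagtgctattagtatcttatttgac
In *PRM1* the 3 copies stand side by side with 4 bases between them, and all read TGTTTCA on the strand shown.

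The mating genes were also compared with the other cultures of the series, since their levels at pH 5 were high in these 3 libraries. *MFA1* was lower in all 20 other libraries (1401 to 6692 FPKM) than in each of the 3 pH 5 chemostats, and higher in all 20 than in each of the pH 3 chemostats. *MF(ALPHA)1*, *BAR1*, *MFA2*, *STE2* and *AGA2* were also below each of the pH 5 chemostats in all 20. For *PRM6*, *FIG1* and *FUS1* this held in 19, for *PRM1* and *AGA1* in 18 and for *NFG1* in 12. Among the 20 other libraries were 2 from laboratory retentostats at their starting point, which are further cultures at pH 5 and 0.04% CO2 at steady state and had 1851 and 2443 FPKM of *MFA1*. In the same 2 libraries, *BAR1* had 118 and 154 FPKM, *FUS1* had 26.9 and 36.9 FPKM and *AGA1* had 97.9 and 169 FPKM, all above the pH 3 chemostats. Of the 12 genes with the largest falls, both of these libraries were above all pH 3 chemostats for 11, the exception being *MFA2* with 1569 and 2284 FPKM. Both were below all pH 5 chemostats for 6 (*MFA1*, *MFA2*, *BAR1*, *STE2*, *AGA2* and *MF(ALPHA)1*), and 1 of the 2 was below them for 5 more, so that the levels of these genes in the pH 5 chemostats were not shared by all cultures at that pH and CO2. By the study's methods the laboratory retentostats were sequenced by another company, so the values are set side by side without a test. These retentostats were also earlier cultures, on medium with less iron sulfate and biotin.

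**Figure D2:**
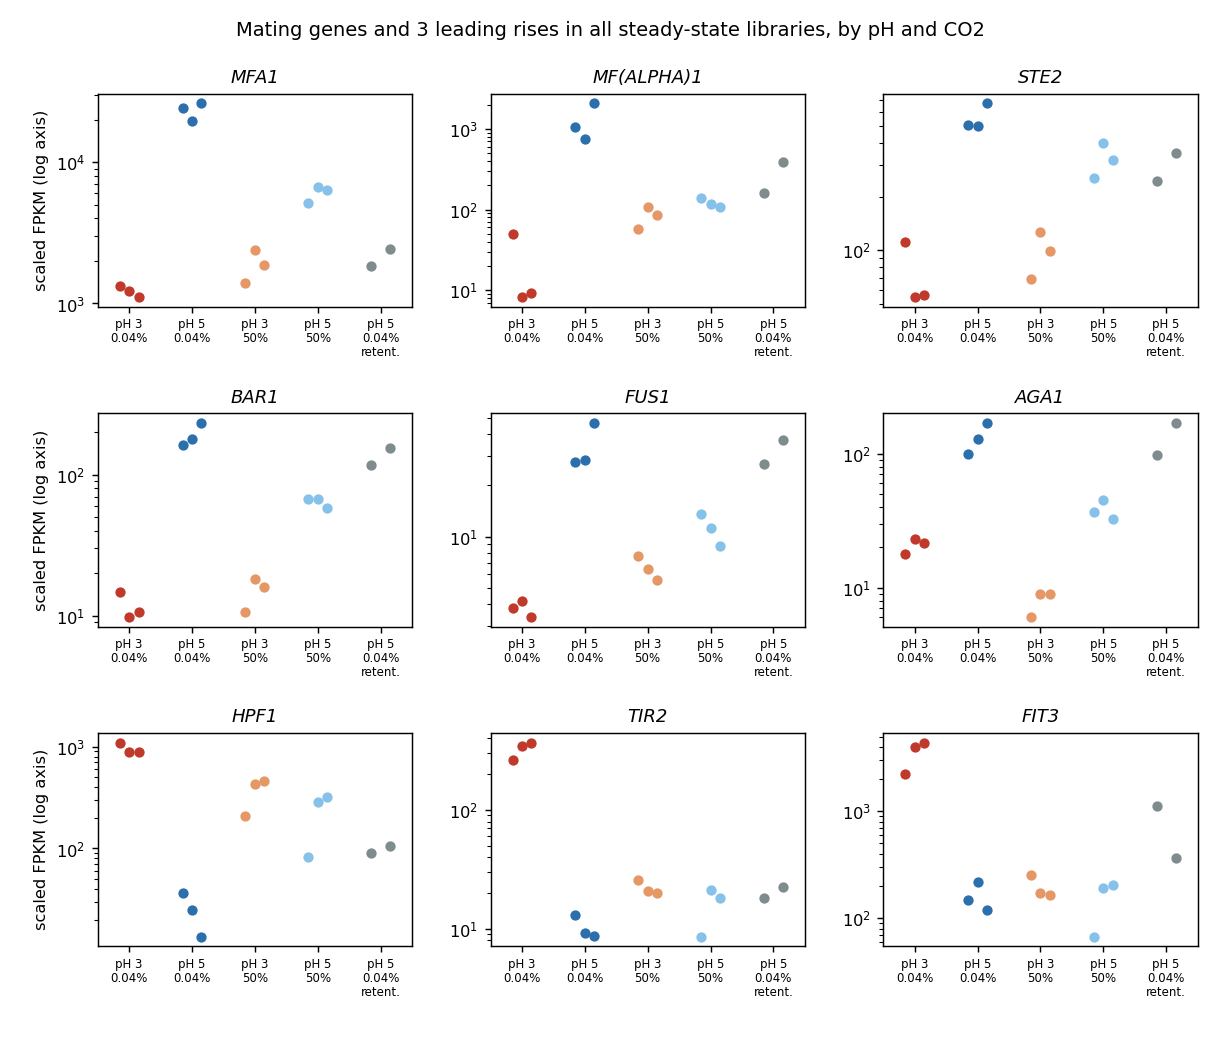
Scaled FPKM (logarithmic axes) of 6 mating genes and 3 of the genes with the largest rises in single libraries, by pH and CO2, with the libraries of the pH 5 laboratory retentostats at their starting point in grey. The pH 3 libraries at 0.04% CO2 (red) are the lowest for *MFA1*, *MF(ALPHA)1* and *FUS1* and the highest for *HPF1*, *TIR2* and *FIT3*.

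Cell wall genes held the largest rises. The yeast wall is a mesh of glucan and chitin covered by mannoproteins, which are anchored through a glycolipid remnant or, for the PIR proteins, directly to glucan. *HPF1*, a mannosylated wall protein, had 1089.6, 881 and 889 FPKM at pH 3 and 36.5, 24.8 and 13.6 FPKM at pH 5. The groups were widely separated, and the log2 change was 5.30 (SE 0.31, adjusted p = 0.00022). *TIR2*, a wall mannoprotein of the cold- and anaerobiosis-induced TIR family, had 263, 344 and 367 FPKM at pH 3 and 13, 9.16 and 8.68 FPKM at pH 5, with a log2 change of 4.86 (SE 0.19, adjusted p = 4.4e-05), and its relative *TIR3* had 85.1, 153 and 161 FPKM at pH 3 and 26.1, 15.6 and 13.9 FPKM at pH 5 (log2 change 2.77, adjusted p = 0.002). Neither gene overlapped between groups, and pH 3 library 1 was the lowest of its group for both.

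*SED1*, the major wall protein of cells in stationary phase, was among the most abundant transcripts, with 17164, 19597 and 20974 FPKM at pH 3 and 4895, 4929 and 2056 FPKM at pH 5 (log2 change 2.38, adjusted p = 0.0055). *HSP150*, a PIR protein, averaged 580.3 ± 77.3 FPKM at pH 3 and 121 ± 40.6 FPKM at pH 5 (SD, n = 3 each, log2 change 2.30, adjusted p = 0.002). The low value of library 3 widened the spread of *SED1* at pH 5. Of 26 tested wall mannoprotein genes, 15 rose (57.7%, beside 11.8% of all genes tested) and 2 fell (7.69%, beside 6.79%). The other 9 did not pass, and the median log2 change was 1.04. Those that fell were *AGA1*, described above, and *FLO11*, the flocculin of filamentous growth, with −1.27 (named after its values were seen), which no longer passed with libraries 2 and 3 averaged. The 15 became 9 with pH 3 libraries 2 and 3 averaged (34.6% of the list, beside 182 of all 5006 genes in that fit). They became 9 without library 2 and 8 without library 3.

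Enzymes that build and trim wall polymers also rose, by smaller factors. *KRE1*, which takes part in the assembly of beta-1,6-glucan, had 188, 235 and 247 FPKM at pH 3 and 69.1, 101 and 75.6 FPKM at pH 5 (log2 change 1.45, adjusted p = 0.0032). *CRH1*, which links chitin to glucan, averaged 579 ± 9.56 FPKM at pH 3 and 224 ± 46.0 FPKM at pH 5, and *SIM1*, of the SUN family of wall proteins, averaged 302 ± 55.7 and 111 ± 14.5 FPKM (SD, n = 3 each). For these genes every pH 3 library was above every pH 5 library. *FKS1*, the catalytic subunit of the main beta-1,3-glucan synthase, had a log2 change of 0.88 (adjusted p = 0.021), and *YPS3*, a surface aspartyl protease, one of 1.70 (adjusted p = 0.0097). In the glucan and chitin list, 16 of 43 genes rose (37.2%, beside 11.8% of all genes tested) and 3 fell (6.98%, near the 6.79% of all genes). The median was 0.54 (0.13 without scaling). Those that fell, *KNH1*, *SKN1* and *CTS2*, were named after their values were seen, and 2 genes fell with libraries 2 and 3 averaged. The 16 became 7 with libraries 2 and 3 averaged, without pH 3 library 2 and without pH 3 library 3.

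The cell wall integrity pathway relays wall stress from surface sensors through the kinase Pkc1 to the kinase Slt2 and the transcription factor Rlm1. Of 25 genes of the pathway and its regulators, 9 rose (36%, beside 11.8% of all genes tested). A fall was seen in 1, *LRG1*, named after its values were seen (4%, beside 6.79%). *RLM1* had 40.6, 41.8 and 42.0 FPKM at pH 3 and 13.9, 19.0 and 19.1 FPKM at pH 5 (log2 change 1.22, adjusted p = 0.0026), and the kinase gene *MKK1* had 38.6, 49.4 and 47.0 FPKM at pH 3 and 19.9, 23.1 and 20.1 FPKM at pH 5 (log2 change 1.06, adjusted p = 0.0034). The values of the groups lay apart for both. *KDX1*, a pseudokinase gene controlled by Rlm1, had a log2 change of 1.01 (adjusted p = 0.0017), and among the sensors *MTL1* had 1.32 (adjusted p = 0.016) and *SLG1* 0.20 (adjusted p = 0.27). With pH 3 libraries 2 and 3 averaged, without pH 3 library 2 and without pH 3 library 3, 4 of these genes rose and *LRG1* did not pass. The median of the list was 0.20, which is −0.21 without scaling.

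Some wall proteins act on the septum, where mother and daughter cell separate. *DSE4*, a glucanase that degrades the wall between them, had 42.6, 38.1 and 37.7 FPKM at pH 3 and 16.2, 11.7 and 7.65 FPKM at pH 5 (log2 change 1.71, adjusted p = 0.0042). Every pH 3 library was above every pH 5 library. *PRY3*, a wall protein of daughter cells, and *EGT2*, a separation protein, had log2 changes of 1.82 and 1.22 (adjusted p = 0.0095 and 0.0062), whereas the chitinase gene *CTS1* had a log2 change of 0.85 and did not pass (adjusted p = 0.068). *TEC1*, a transcription factor that works with Ste12 in filamentous growth and is counted in the pheromone response list, had a log2 change of −1.40 (adjusted p = 0.002).

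**Figure D3:**
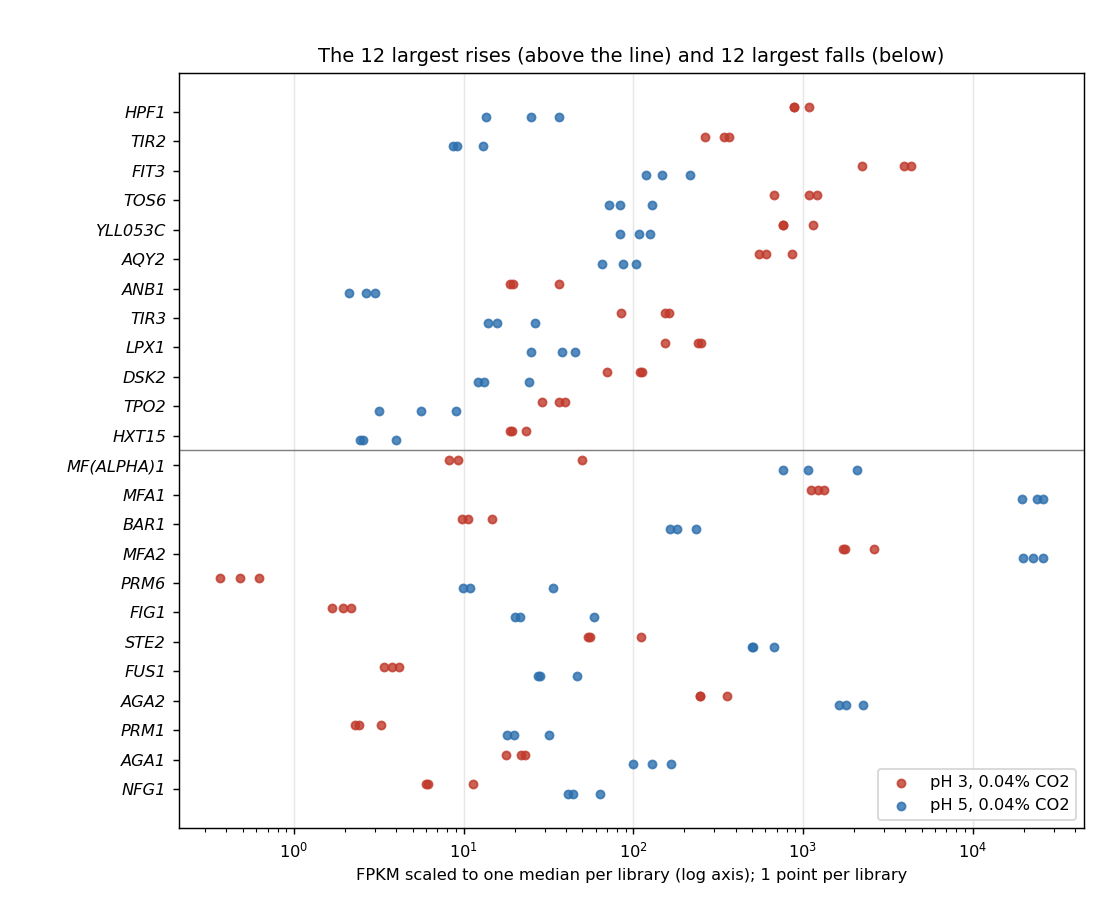
Scaled FPKM (logarithmic horizontal axis) of the 12 genes with the largest rises (above the line) and the 12 with the largest falls (below it), 1 point per library, with pH 3 in red above pH 5 in blue. No gene has overlapping groups, and the pH 5 values of *MFA1* lie between 19598 and 26065.

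The other genes with the largest rises had varied roles. *TOS6*, a glycolipid-anchored protein of unknown function, had 677, 1079 and 1204 FPKM at pH 3 and 72.2, 128 and 83.1 FPKM at pH 5 (log2 change 3.37, adjusted p = 0.0008). *TPO2*, a polyamine exporter of the plasma membrane, had 29.1, 36.6 and 39.3 FPKM at pH 3 and 5.6, 9.06 and 3.15 FPKM at pH 5 (log2 change 2.46, adjusted p = 0.0032). Both were higher in every pH 3 library. *AQY2* and the adjoining *YLL053C* (chrXII:35912-36361 and chrXII:35503-35961 of R64, both on the minus strand), which together correspond to the aquaporin gene that is split by a premature stop in the reference strain, share 50 bases and rose together, with log2 changes of 2.96 and 3.06, so that they count as a single locus. *LPX1*, a peroxisomal lipase, and *DSK2*, a ubiquitin-binding protein, had log2 changes of 2.55 and 2.53. *HXT15* is nearly identical to other hexose transporter genes, and since reads that mapped to several places were removed by the authors, its log2 change of 2.44 is uncertain.

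The iron-related genes *FIT3* and *FIT2* rose strongly, while most of the iron uptake list did not pass. When iron is short, yeast cells activate the transcription factor Aft1, which binds the core sequence TGCACCC and raises surface mannoproteins that retain siderophores (the FIT genes), the oxidase and permease of high-affinity uptake, and siderophore transporters. *FIT3* had 2218, 3954 and 4358 FPKM at pH 3 and 148, 216 and 119 FPKM at pH 5 (log2 change 4.42, SE 0.31, adjusted p = 0.00056). *FIT2* had 1653, 959 and 912 FPKM at pH 3 and 242, 321 and 177 FPKM at pH 5 (log2 change 2.24, adjusted p = 0.0037). Both were higher in all pH 3 libraries, but library 1 was the lowest of them for *FIT3* and the highest for *FIT2*.

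*FTR1*, the iron permease, averaged 413 ± 13.1 FPKM at pH 3 and 205 ± 30.2 FPKM at pH 5, and its partner oxidase *FET3* averaged 24 ± 6.70 and 8.16 ± 1.54 FPKM (SD, n = 3 each). Both differences exceeded the spread of the replicates, with log2 changes of 1.02 (adjusted p = 0.0049) and 1.43 (adjusted p = 0.0061). Of 24 tested iron uptake genes, 6 rose and 1, the reductase gene *FRE4* (log2 change −0.80, adjusted p = 0.035), fell, with a median of 0.45 (0.05 without scaling). With libraries 2 and 3 averaged, without pH 3 library 2, without pH 3 library 3 and without pH 5 library 2, 4 rose and none fell. *SIT1*, a siderophore transporter, was among those lost (adjusted p = 0.034, or 0.08 with the libraries averaged). The 6 are 25% of the list, beside 11.8% of all genes tested.

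TGCACCC was found on either strand (GGGTGCA) in 87 of the 5897 windows (1.48%) and in 12 of the 24 tested iron genes. Of these 12, 5 rose and none fell, and of the other 12, 1 rose and 1 fell. Among all 75 tested genes with a match, 20 (26.7%) rose and 0 fell in limma (3 fell at an unadjusted p under 0.05), beside 557 (11.6%) and 335 (6.95%) of the 4818 without. With libraries 2 and 3 averaged, 10 of the 75 rose (13.3%, beside 3.55% of those without), as did 4 of the 12 iron genes. The windows of *FIT2* (chrXV:1059131-1059430, plus strand) and *FIT3* (chrXV:1061156-1061455, minus strand) are shown because these neighbours, which face each other across the chromosome, carry 4 and 2 copies. The sequences are from R64 (RefSeq), written 5′ to 3′ along each gene, with TGCACCC or GGGTGCA in capitals, and in *FIT2* also a match to TCGTATA on the opposite strand (TATACGA), the core of the sterol response element. 
FIT2: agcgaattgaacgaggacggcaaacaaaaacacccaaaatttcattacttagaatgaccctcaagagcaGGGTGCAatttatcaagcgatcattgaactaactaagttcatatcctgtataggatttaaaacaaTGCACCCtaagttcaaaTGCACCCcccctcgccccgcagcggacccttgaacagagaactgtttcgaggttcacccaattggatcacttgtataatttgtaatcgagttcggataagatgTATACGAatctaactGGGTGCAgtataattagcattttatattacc
FIT3: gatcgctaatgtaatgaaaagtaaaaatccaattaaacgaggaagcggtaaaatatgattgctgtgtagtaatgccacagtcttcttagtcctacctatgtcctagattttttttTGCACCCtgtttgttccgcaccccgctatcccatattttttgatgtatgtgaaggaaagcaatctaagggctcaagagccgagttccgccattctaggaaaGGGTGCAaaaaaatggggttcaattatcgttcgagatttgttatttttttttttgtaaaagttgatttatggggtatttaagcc
*FIT3* was also high in the 2 laboratory retentostat libraries at pH 5 and 0.04% CO2, with 1123 and 366 FPKM, which is above the pH 5 chemostats and below the pH 3 chemostats. By the study's account, however, those earlier retentostat cultures had less iron sulfate in the medium.

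Cytosolic pH is held near neutral by the plasma membrane proton pump Pma1, which exports protons at the cost of ATP, while potassium uptake balances the charge. *PMA1* had 1940.5, 1393 and 1477 FPKM at pH 3 and 728, 939.8 and 567 FPKM at pH 5 (log2 change 1.12, SE 0.23, adjusted p = 0.018). All pH 3 libraries were above the pH 5 libraries, and library 1 was the highest. The small pump regulator *PMP2* had a log2 change of 0.96 (adjusted p = 0.034), and *PMP3*, another small plasma membrane protein, had 1.23 (adjusted p = 0.035). The pump-activating kinase *PTK2* had 0.65 (adjusted p = 0.014), and the potassium transporter *TRK2* had 0.60 (adjusted p = 0.042). Of 15 tested genes of proton and potassium transport, 7 rose (46.7%, beside 11.8% of all genes tested), none fell, and the median was 0.54 (0.14 without scaling). In limma, 0 of the 15 passed with libraries 2 and 3 averaged (8 rose at an unadjusted p under 0.05, and *PMA1* had an adjusted p of 0.06), without pH 3 library 2 or without pH 3 library 3, while 3 passed without pH 3 library 1 and 2 without pH 5 library 2.

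Of the 22 subunits and assembly factors of the vacuolar proton pump, 4 rose, which is 18.2% beside 11.8% of all genes tested, and 2 rose without pH 3 library 1 or pH 5 library 2. In limma, 0 passed without pH 3 library 2, without pH 3 library 3 or with both averaged, where 5 rose at an unadjusted p under 0.05. The median of that list changed sign with the scaling (0.16 scaled, −0.25 as deposited). In the Rim101 pathway, which responds to external alkalinity, the arrestin-like protein Rim8 acts upstream of the repressor Rim101. Of 17 genes of this pathway, 4 rose and 4 fell (23.5% each, beside 11.8% and 6.79% of all genes tested). *RIM8* had 67.1, 84.5 and 79.9 FPKM at pH 3 and 21.4, 29.2 and 24.1 FPKM at pH 5 (log2 change 1.60, adjusted p = 0.0011). *STP22*, a sorting complex subunit, had 35.5, 34.4 and 41.6 FPKM at pH 3 and 16.5, 13.8 and 9.85 FPKM at pH 5 (log2 change 1.43, adjusted p = 0.0037), and both genes had separate groups. The repressor *NRG2* had a log2 change of −1.46 (adjusted p = 0.019), *RIM9* −0.70 (adjusted p = 0.022) and *RIM20* −0.52 (adjusted p = 0.029). With libraries 2 and 3 averaged, without pH 3 library 2 and without pH 3 library 3, 2 rose and none fell, without pH 3 library 1 it was 2 and 2, and without pH 5 library 2 it was 2 and 1.

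Of 20 genes of the weak acid response, 5 rose (25%, beside 11.8% of all genes tested), among them *TPO2* above, *ATO2*, a putative ammonium or acetate exporter that averaged 4331 ± 622 FPKM at pH 3 and 1562 ± 553 FPKM at pH 5 (SD, n = 3 each), and the transporters *TPO1* and *TPO4*, both with a log2 change of 1.10. With the libraries averaged or without pH 3 library 3, 2 of them rose, and 3 without pH 3 library 2. Of 25 genes of the osmotic stress list, 2 rose (8%, below the 11.8% of all genes tested) and 1 fell (4%, beside 6.79%). *SMP1*, a target transcription factor of the osmotic stress kinase, had 64.3, 62.0 and 64.4 FPKM at pH 3 and 18.6, 23.0 and 13.9 FPKM at pH 5, whereas *GRE1*, a hydrophilin induced by osmotic stress, had 1202, 1444 and 1473 FPKM at pH 3 and 3728, 3631 and 3652 FPKM at pH 5. The groups were widely separated and in opposite directions, with log2 changes of 1.75 (adjusted p = 0.0014) and −1.42 (adjusted p = 0.0023). Of this list, 1 rose and 1 fell with libraries 2 and 3 averaged, without pH 3 library 2, without pH 3 library 3 and without pH 5 library 2, whereas 5 fell without pH 3 library 1.

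Most sterol synthesis genes rose. Ergosterol, the main sterol of the yeast plasma membrane, is made from acetyl-CoA through a long chain of enzymes, several of which use oxygen or heme. Of 30 tested genes, 19 rose and none fell, 23 had pH 3 libraries that were all above the pH 5 libraries (23.7% of all genes tested did), and the median log2 change was 0.80 (0.40 without scaling). *ERG6*, the sterol methyltransferase, had 647, 919 and 1001 FPKM at pH 3 and 380.3, 325 and 339 FPKM at pH 5 (log2 change 1.27, adjusted p = 0.0061). *HMG1*, the main reductase that sets the flux into the pathway, had 180.1, 364 and 362 FPKM at pH 3 and 135, 124 and 87.9 FPKM at pH 5 (log2 change 1.33, adjusted p = 0.024, or 0.092 with libraries 2 and 3 averaged). Both showed library 1 nearest to the pH 5 libraries. *PDR11*, a transporter that takes up sterols under anaerobic conditions, averaged 45.4 ± 11.3 FPKM at pH 3 and 11.8 ± 2.17 FPKM at pH 5 (SD, n = 3 each), and *NCP1*, the reductase that supplies electrons to the pathway's cytochromes P450, and *ERG11*, one of these, had log2 changes of 1.55 and 1.04 (adjusted p = 0.0047 and 0.037).

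The count of 19 became 3 with libraries 2 and 3 averaged (10% of the list, beside 182 of all 5006 genes in that fit). It was 4 without pH 3 library 2, 3 without pH 3 library 3 and 8 without pH 5 library 2. The median of the list stayed between 0.64 and 0.94 whichever library was left out. Genes that are usually repressed by oxygen were mixed. Of 24 tested, 7 rose (29.2%, beside 11.8% of all genes tested) and 1, *MGA2*, named after its values were seen, fell (4.17%, beside 6.79%). The median was 0.34 (−0.06 without scaling). *ANB1*, the anaerobic form of translation factor eIF5A, had 36.6, 19.7 and 18.7 FPKM at pH 3 and 2.64, 2.11 and 3.01 FPKM at pH 5 (log2 change 2.80, adjusted p = 0.0011), from 94 to 240 reads per library at pH 3 and 15 to 25 at pH 5. *HEM13*, an oxygen-dependent enzyme of heme synthesis, averaged 128 ± 17.3 FPKM at pH 3 and 48.2 ± 9.53 FPKM at pH 5 (SD, n = 3 each, log2 change 1.40, adjusted p = 0.0034). With libraries 2 and 3 averaged, without pH 3 library 2 and without pH 3 library 3, 4 of these rose and *MGA2* did not pass.

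Of 30 tested genes of ammonium uptake and nitrogen metabolism, 14 rose (46.7%, beside 11.8% of all genes tested) and none fell. Whether the ammonia solution used to hold pH bears on them was not tested. Ammonium enters through the permeases Mep1, Mep2 and Mep3, is fixed by the glutamate dehydrogenase Gdh1, and is under the control of GATA factors such as Gat1 when nitrogen is scarce. *MEP2*, the high-affinity permease, had 969.9, 245 and 244 FPKM at pH 3 and 105, 138 and 62.6 FPKM at pH 5 (log2 change 1.99, adjusted p = 0.041, or 0.068 with libraries 2 and 3 averaged). *MEP3* had 61.6, 26.5 and 30.1 FPKM at pH 3 and 7.93, 8.61 and 4.70 FPKM at pH 5 (log2 change 2.26, adjusted p = 0.0058). Library 1 was the highest for both, by far for *MEP2*, and the groups did not overlap. *GAT1* was even across libraries, with 89.9, 78.4 and 86.3 FPKM at pH 3 and 18.7, 29.5 and 17.5 FPKM at pH 5 (log2 change 1.94, adjusted p = 0.0014).

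*MEP1* had a log2 change of 1.71 (adjusted p = 0.017), *GDH1* 1.58 (adjusted p = 0.0077), *CAR2*, an enzyme of arginine breakdown, 1.59 (adjusted p = 0.0097) and *GAP1*, the general amino acid permease, 1.31 (adjusted p = 0.034). The other 16 genes of the list did not pass, and its median was 0.91 (0.51 without scaling). With libraries 2 and 3 averaged 7 of the list rose, without pH 3 library 2 8, and without pH 3 library 3 7. Of 19 amino acid permeases, 4 were higher (21.1%, beside 11.8% of all genes tested) and 3 lower (15.8%, beside 6.79%). Those lower were *DIP5*, *GNP1* and *TAT2*, for dicarboxylic amino acids, glutamine and aromatic amino acids, with log2 changes of −1.61, −1.5 and −1.13. In limma, 0 of these permeases passed with libraries 2 and 3 averaged (6 rose at an unadjusted p under 0.05), without pH 3 library 2 or without pH 3 library 3, while 2 rose and none fell without pH 5 library 2, and 5 rose and none fell without pH 5 library 1. In sulfur metabolism, 4 of 29 genes rose (3 with libraries 2 and 3 averaged), which is 13.8% and near the 11.8% of all genes tested. The largest rise was that of *CYS3*, an enzyme of cysteine synthesis, which averaged 429.8 ± 90.6 FPKM at pH 3 and 119.7 ± 49.0 FPKM at pH 5 (SD, n = 3 each, log2 change 1.90, adjusted p = 0.0067). The median of the sulfur list was −0.03, and 5 of its genes fell when pH 3 library 1 was left out.

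Of 137 cytosolic ribosomal protein genes, 7 rose (5.11%) and 3 fell (2.19%), both below the shares of all genes tested (11.8% and 6.79%). The median was −0.06, and many are paralog pairs for which removal of ambiguous reads makes single members uncertain. With pH 3 libraries 2 and 3 averaged, 2 rose and none fell, as without either of them, and the counts were 4 and 5 without pH 3 library 1, 6 and 0 without pH 5 library 1, 3 and 0 without pH 5 library 2 and 8 and 5 without pH 5 library 3. *RPP0*, the ribosomal stalk protein, had the largest rise of the list, with 2208, 2231 and 2265 FPKM at pH 3 and 721, 933 and 525 FPKM at pH 5 (log2 change 1.66, adjusted p = 0.0038). Its pH 3 libraries were nearly equal and well above all pH 5 libraries. Of 71 mitochondrial ribosomal protein genes, 22 (31.0%, beside 6.79% of all genes) fell and 1, *MRPL4*, rose, with a median of −0.54, and 52 had pH 3 libraries that were all below the pH 5 libraries (23.1% of all genes did). *MRPL35*, with a log2 change of −0.86 (adjusted p = 0.0089), and *RSM10*, with −0.96 (adjusted p = 0.016), were among those that fell. The 22 became 1 with pH 3 libraries 2 and 3 averaged, 1 without pH 3 library 2 or 3, and 4 without pH 3 library 1 or pH 5 library 2, although the median stayed between −0.66 and −0.37 whichever library was left out. Of 84 ribosome biogenesis genes, 6 (7.14%) fell and 1, *NOP1*, rose, with a median of −0.36. The count of falls was 15 without pH 3 library 1, 10 without pH 5 library 1, 1 without pH 5 library 2 and 2 without pH 5 library 3. In limma it was 0 with pH 3 libraries 2 and 3 averaged (9 at an unadjusted p under 0.05) and without either of them.

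**Figure D4:**
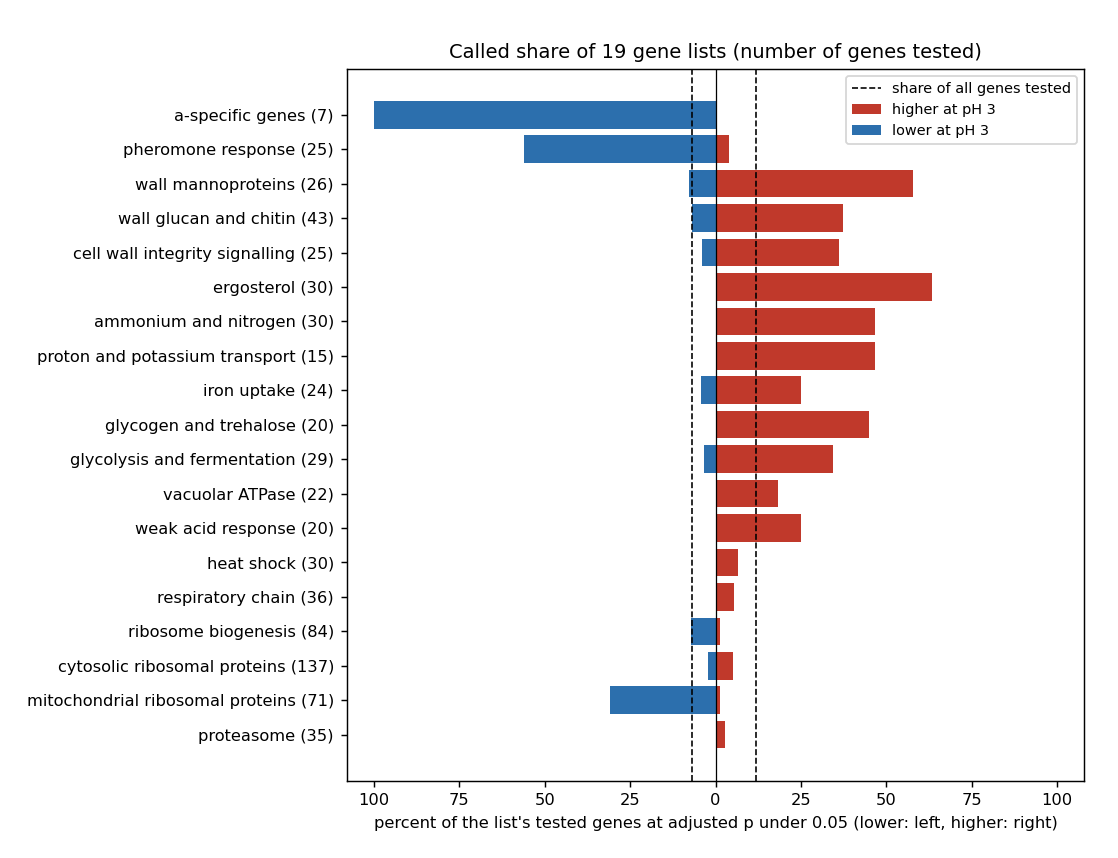
Percent of the tested genes of 19 lists at an adjusted p under 0.05, with genes higher at pH 3 to the right in red and genes lower at pH 3 to the left in blue, and dashed lines at 11.8% and 6.79%, the shares of all genes tested. All 7 a-specific genes are to the left, and 19 of the 30 ergosterol genes are to the right.

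The effect of pH at 0.04% CO2 was set against that at 50% CO2 in a fit of 12 libraries, in which the pH 3 group at 50% CO2 held the library labelled as such and 2 libraries from the start of retentostats run under the same pH, CO2 and dilution rate. Over all genes tested, 1209 (24.3%) had a different pH effect at an adjusted p under 0.05, and so did 11 of the 12 genes with the largest rises and 9 of the 12 with the largest falls. Since these 24 genes were chosen by their change in the same 0.04% CO2 libraries, their counts cannot be weighed against the share of all genes. *HPF1* had a log2 change of 5.30 at 0.04% CO2 and 0.82 at 50% CO2, *TIR2* had 4.87 and 0.53, and *FIT3* had 4.42 and 0.48. *TIR3* had opposite directions, 2.78 at 0.04% CO2 and −1.83 at 50% CO2. Its difference of 4.61 (SE 0.62, adjusted p = 0.0022) was the largest among the 12 rises. All 12 of these genes except *DSK2* were higher in the pH 3 libraries at 0.04% CO2 than in each of the 20 other libraries of the series. Of those 20, 16 were above all pH 5 chemostats at 0.04% CO2 for *HPF1*, *TIR2* and *ANB1*, and 15 for *DSK2*. For the rest, this number ran from 0 (*HXT15*) to 13 (*TPO2*). In the 2 laboratory retentostat libraries at their starting point, *DSK2* had 77.3 and 78.6 FPKM, within its range in the pH 3 chemostats. *HPF1* had 90.3 and 106 FPKM there, between the 2 groups of chemostats.

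Of the 12 largest falls, 9 differed between the CO2 levels, and *MF(ALPHA)1*, *PRM6*, *FIG1*, *FUS1* and *PRM1* did not pass at 50% CO2 by themselves. *MFA1* had a log2 change of −4.24 at 0.04% CO2 and −1.71 at 50% CO2, a difference of −2.54 (SE 0.30, adjusted p = 0.0014), and *FUS1* had −2.86 and −0.69, a difference of −2.17 (SE 0.30, adjusted p = 0.0027). In the pH 3 libraries, *MFA1* had 1109.5 to 1327 FPKM at 0.04% CO2 and 1401 to 2399 FPKM at 50% CO2. In the pH 5 chemostats it had 19598 to 26065 FPKM at 0.04% CO2 and 5161 to 6692 FPKM at 50% CO2. Between the CO2 levels, *MFA1* thus differed more at pH 5 than at pH 3. *AGA1*, with −2.59 and −2.14, and *NFG1*, with −2.56 and −3.07, did not pass the test of the difference (adjusted p = 0.24 and 0.25). *RIM8* had nearly equal values of 1.60 and 1.66, and the difference of −0.06 had an SE of 0.19 (adjusted p = 0.82). The ammonium permease *MEP3*, with 2.27 and 2.03, also did not pass (adjusted p = 0.71), whereas *PMA1*, with 1.12 and −0.59, did (adjusted p = 0.038).

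**Figure D5:**
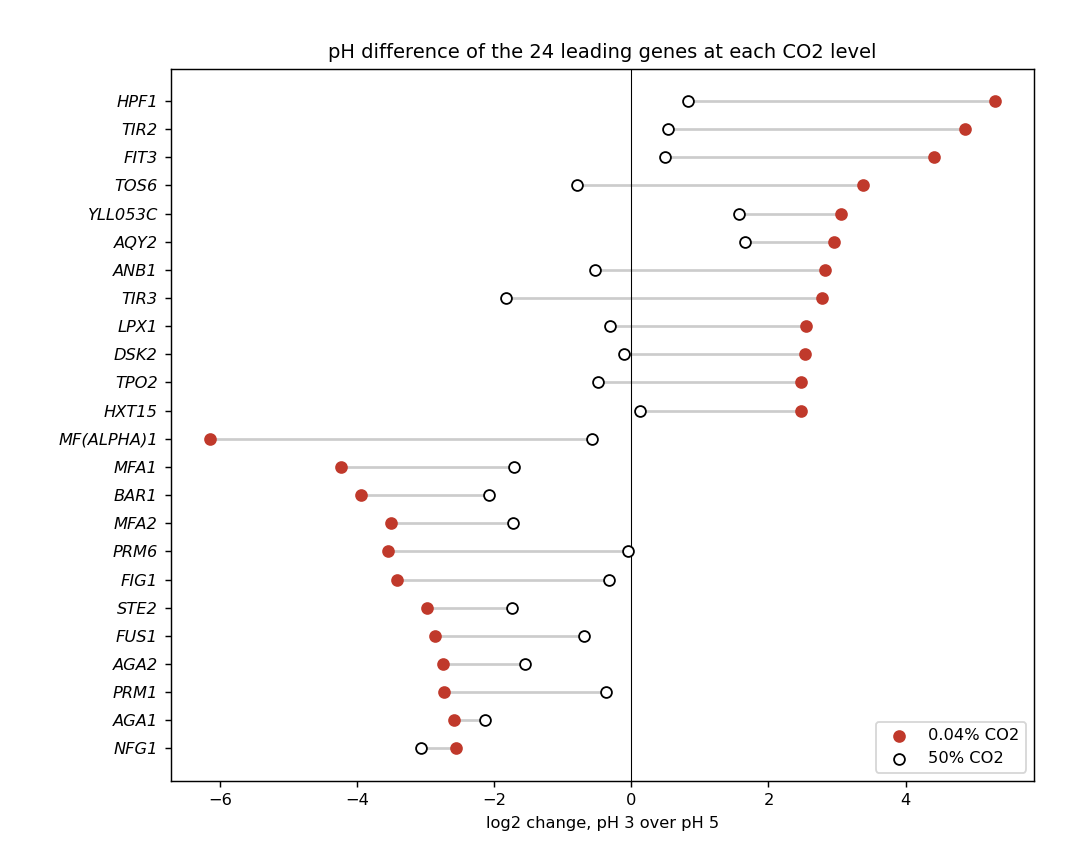
Log2 change (pH 3 over pH 5, horizontal axis) of the 12 largest rises and 12 largest falls at 0.04% CO2 (filled) and at 50% CO2 (open), joined by a line for each gene. Filled points lie farther from 0 than open points except for *NFG1*, and *TIR3* lies at 2.78 and −1.83.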

How the data were processed

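RNA was sequenced from chemostat cultures, and the authors aligned reads with STAR 2.5.3a to the R64 genome, removed ambiguously mapped reads, counted reads per gene with HTSeq and deposited FPKM values, 1 file per library (SAMtools and edgeR are also named in their notes). Whether counting used strand is described differently in labels and study methods, so antisense neighbours cannot be told apart. FPKM were scaled here to a common median (51.5) over genes with a mean of at least 10, and log2(FPKM + 1) was fitted in limma 3.58.1 (R 4.3.3), by its moderated test with a mean-variance trend, two-sided, with Benjamini-Hochberg adjustment over all 4975 genes. A pseudocount of 1 understates changes of low genes. DE meant a fold change above 2 and an adjusted p under 0.005. Reads per library came from FPKM and gene length and gave depth only. Of 6600 IDs, 5917 matched RefSeq R64. No 2 of the 26 libraries were identical (325 pairs). P-values measure the spread between these libraries, which the study describes as biological replicates.

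In data simulated at these levels and this spread for 4975 genes, 94% of 100 genes changed by 2 and 70% of 100 changed by 1.5 (log2) were called DE, and 0 of 4775 unchanged genes. The simulation drew 6 independent libraries and used an FPKM minimum of 1. It therefore does not cover the case that pH 3 libraries 2 and 3 came from the same culture. Members and gene lists were chosen with earlier results of these data known. Named were the 12 largest rises and 12 largest falls among DE genes without overlap, and per list its first gene and up to 6 members at an adjusted p under 0.05 with the largest change, with near-identical copies marked uncertain. The result of 1 list is not reported here. Alternatives changed the scaling, pseudocount, FPKM minimum, libraries fitted, replicate block and DE limit, and left out each library. The GC-adjusted fit and the fit with pH 3 libraries 2 and 3 averaged were chosen after seeing the data. Figures used matplotlib 3.10.9.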

Additional observations from a re-analysis of the deposited data

Results flagged for a closer look

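The change with pH differed between the 2 CO2 levels, by the limma test of the difference at an adjusted p under 0.05, for 20 of the 24 genes with the largest rises and falls. The differences in log2 change (0.04% minus 50% CO2) were 4.48 for *HPF1*, 4.33 for *TIR2*, 3.94 for *FIT3*, 4.17 for *TOS6*, 1.49 for *YLL053C*, 3.36 for *ANB1*, 4.61 for *TIR3*, 2.86 for *LPX1*, 2.64 for *DSK2*, 2.96 for *TPO2* and 2.34 for *HXT15*. They were −5.58 for *MF(ALPHA)1*, −2.54 for *MFA1*, −1.87 for *BAR1*, −1.77 for *MFA2*, −3.51 for *PRM6*, −3.10 for *FIG1*, −1.23 for *STE2*, −2.17 for *FUS1* and −2.36 for *PRM1*. With a lone library for pH 3 and 50% CO2 (the chemostat without the retentostat starts), assumed to vary like the other groups, *MFA2* and *STE2* did not pass (adjusted p = 0.052 and 0.245). The genes were chosen by their change at 0.04% CO2, which favours a larger value at that CO2 level.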

How the results depend on the processing

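The count of 114 DE genes was 172 with all 12 steady-state libraries in the fit, 297 at an adjusted p of 0.05 with a fold change of 2, and 14 with pH 3 libraries 2 and 3 averaged. Leaving out 1 library gave between 13 and 95: 48 without pH 3 library 1, 14 without library 2, 13 without library 3, 30 without pH 5 library 1 and 34 without library 2. The 924 genes at an adjusted p under 0.05 were 2163 with FPKM as deposited, 242 with the libraries averaged and between 239 and 982 with 1 left out, with 255 and 239 without pH 3 library 2 and library 3 and 495 without pH 5 library 2. The 1209 genes whose pH effect differed with CO2 were 2617 with FPKM as deposited. Signs turned in 6 named genes, none of which passed in any fit: *SLG1* (−0.21 as deposited, −0.012 GC-adjusted), *NDI1* (−0.25 as deposited, −0.062 quantile-normalized), *GLG1* (−0.37 as deposited, −0.00068 averaged, −0.044 to 0.14 with a library left out), *HSP12* (−0.19 as deposited, −0.085 quantile-normalized, −0.23 GC-adjusted), *CLN1* (−0.27 as deposited, −0.017 to 0.38 with a library left out) and *IMG1* (0.0022 without an FPKM minimum, −0.12 to 0.065 with a library left out). All 114 DE genes kept their direction at an adjusted p under 0.05 under the other scalings, pseudocount, FPKM minimums, the 12-library fit and the GC-adjusted fit, and 110 or more did so with any 1 library left out. Of the 216 named genes, 121 no longer passed their limit with the libraries averaged, 119 without pH 3 library 2 and 122 without library 3.

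The replicate numbers gave no sign of paired cultures: same-numbered libraries deviated from their group means with correlations of −0.009, −0.068 and −0.056. With so few libraries per group, this cannot show that the cultures were not run in parallel. With the replicate number as a block, 56 genes were DE, and all 114 kept their direction at an adjusted p under 0.05.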

Other observations

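Carbon metabolism moved in a way that the lists above do not show. Some genes for the use of carbon sources other than glucose rose. *ACS1*, the acetyl-CoA synthetase induced without glucose, had 625, 1178 and 1361 FPKM at pH 3 and 374, 345 and 143 FPKM at pH 5 (log2 change 1.92, adjusted p = 0.023 in limma). *JEN1*, the lactate permease, had 4916, 8251 and 8312 FPKM at pH 3 and 3682, 3098 and 1422 FPKM at pH 5 (log2 change 1.46, adjusted p = 0.037). In both, library 1 was the pH 3 library nearest to the pH 5 libraries. Of 24 tested genes of gluconeogenesis and the glyoxylate cycle, 8 rose (33.3%, beside 11.8% of all genes tested), but 0 passed with pH 3 libraries 2 and 3 averaged (8 rose at an unadjusted p under 0.05) or without either of them, and 2 did without pH 5 library 2. In glycolysis and fermentation, 10 of 29 genes rose (34.5%, beside 11.8% of all genes tested). A fall was seen in 1, *PDC6*, a minor pyruvate decarboxylase (log2 change −1.89, adjusted p = 0.037). Of this list, 2 rose with libraries 2 and 3 averaged, without pH 3 library 2 and without library 3, and 5 without pH 5 library 2. *TDH3*, a glyceraldehyde-3-phosphate dehydrogenase and the gene with most reads in all 6 libraries, had 22936, 43196 and 43154 FPKM at pH 3 and 14719.5, 15702 and 10386 FPKM at pH 5 (log2 change 1.38, adjusted p = 0.024).

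Of 20 genes of glycogen and trehalose, 9 rose, led by *PGM2*, a phosphoglucomutase (log2 change 1.55, adjusted p = 0.013), and 2 of them did so with libraries 2 and 3 averaged, without pH 3 library 2 and without library 3, and 4 without pH 5 library 2. Of 33 genes controlled by the stress factors Msn2 and Msn4, 5 rose (15.2%, beside 11.8% of all genes tested), 1 fell and 27 did not pass. *XBP1*, a repressor induced by stress and starvation, had 135, 134 and 141 FPKM at pH 3 and 46.6, 56.7 and 32.4 FPKM at pH 5 (log2 change 1.61, adjusted p = 0.0031). *HSP12*, a marker of the same response, had 9239, 19162 and 18516 FPKM at pH 3 and 11535, 10985 and 16532 FPKM at pH 5, with overlap (log2 change 0.22, adjusted p = 0.65). Of this list, 2 rose with libraries 2 and 3 averaged, without pH 3 library 2 and without library 3, 3 without pH 5 library 2 and 11 without pH 3 library 1.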
